A study of Saccharomyces cerevisiae with 26 samples.

Results

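The genes described here encode 10 amino acid permeases of the budding yeast plasma membrane, AGP1, GNP1, AGP3, DIP5, BAP2, BAP3, TAT1, TAT2, CAN1 and LYP1. They were chosen by name, not by level, from the 6008 genes of the deposited RNA table, though earlier results of these data were known. All 10 were found and tested. RNA was sequenced from yeast of the CEN.PK background in continuous culture, where respiration and biosynthesis alternate in a metabolic cycle. The groups were the TAF14[W81A] mutant and wild-type CEN.PK, each at 5 time points, with 2 libraries per group and 20 RNA libraries in all. Per the labels, time points 1 and 2 are early and late OX, the oxidative phase, time points 3 and 4 are early and late RB, the reductive building phase, and time point 5 is RC, the reductive charging phase. TAF14 encodes a subunit shared by several transcription and chromatin complexes, and its YEATS domain, in which the W81A change lies, binds acylated lysines of histones. The labels do not say whether the 2 libraries of a group came from separate cultures, so p-values measure only the spread between these libraries, which may be technical. Nor do they say how many clones of the mutant were used.

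Permeases of this family are proton symporters that carry amino acids into the cell, each with its own range of substrates. Many of their genes are switched on by the SPS sensor, in which the receptor-like protein Ssy1 and its partners Ptr3 and Ssy5 detect outside amino acids and release the transcription factors Stp1 and Stp2 by cleavage. AGP1, GNP1, BAP2, BAP3, TAT1, TAT2 and DIP5 are known targets of that pathway. Nitrogen catabolite repression through GATA factors and the general amino acid control factor Gcn4 act on several of the promoters as well. Permease proteins are further controlled after synthesis, by export from the endoplasmic reticulum and by ubiquitination through Rsp5 with its arrestin-like adaptors, which RNA levels do not show.

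The reads of each library, recovered from the deposited levels, came to between 2019696 and 3744532 over the 5433 genes for which every group had 1 solution. The median SD between the 2 libraries of a group lay between 0.0513 and 0.126 on the log2 scale. It was largest in the wild-type group of time point 1, with 0.0941 in the mutant group of that time point. TAF14 itself, whose point change cannot be seen in an RNA level, had levels of 261 to 473 in the mutant libraries and 217 to 400 in the wild-type libraries. Its mean difference over the 5 time points was 0.20 ± 0.03 (log2, SE, limma, adjusted p = 7e-06).

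All levels below are on the authors' deposited linear scale per gene length, 1 value for each of the 2 libraries of a group. A difference is the TAF14[W81A] mutant minus wild type in log2, with the SE of a limma fit over all 20 libraries, and p-values are two-sided and Benjamini-Hochberg adjusted over the 5974 genes tested. A difference was called at an adjusted p under 0.05.

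The permease genes took different directions in the mutant. As a mean over the 5 time points, AGP1, GNP1 and DIP5 were higher in the mutant, and AGP3, BAP2, TAT1, CAN1 and LYP1 were lower. No call was made for BAP3 (0.06 ± 0.12, adjusted p = 0.67) or TAT2 (0.03 ± 0.05, adjusted p = 0.64). The 3 higher genes stand beside 38% of all genes called higher, and the 5 lower ones beside 31.9% called lower. The median difference of the 10 was -0.03, against 0.03 for all genes tested. CAN1 was lower by only 0.09 ± 0.03 (adjusted p = 0.021), which was not called with upper-quartile scaling (-0.04, adjusted p = 0.23) or without mutant library 1 of time point 3 (-0.06, adjusted p = 0.057). In these bulk cultures, fewer cells in a given state and less RNA per cell cannot be told apart.

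By time point, 2 members were higher and 4 lower at time point 1, where 23.8% of all genes were higher and 25.4% lower. Time point 2 had 3 higher and 5 lower members, beside 23.8% and 23.9% of all genes. Time point 3 had 2 higher and 3 lower members, beside 25.8% and 18%. Time point 4 had 5 higher and 2 lower members, beside 25.9% and 21.7%. Time point 5 had 1 higher and 1 lower member, beside 15.2% in each direction, or 2 and 1 members with upper-quartile scaling. Without single libraries, the number called at time point 5 ranged from 2 to 5, and 5 were called without either wild-type library of time point 1. The share of members called was near that of all genes at time point 3.

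**Figure D1:**
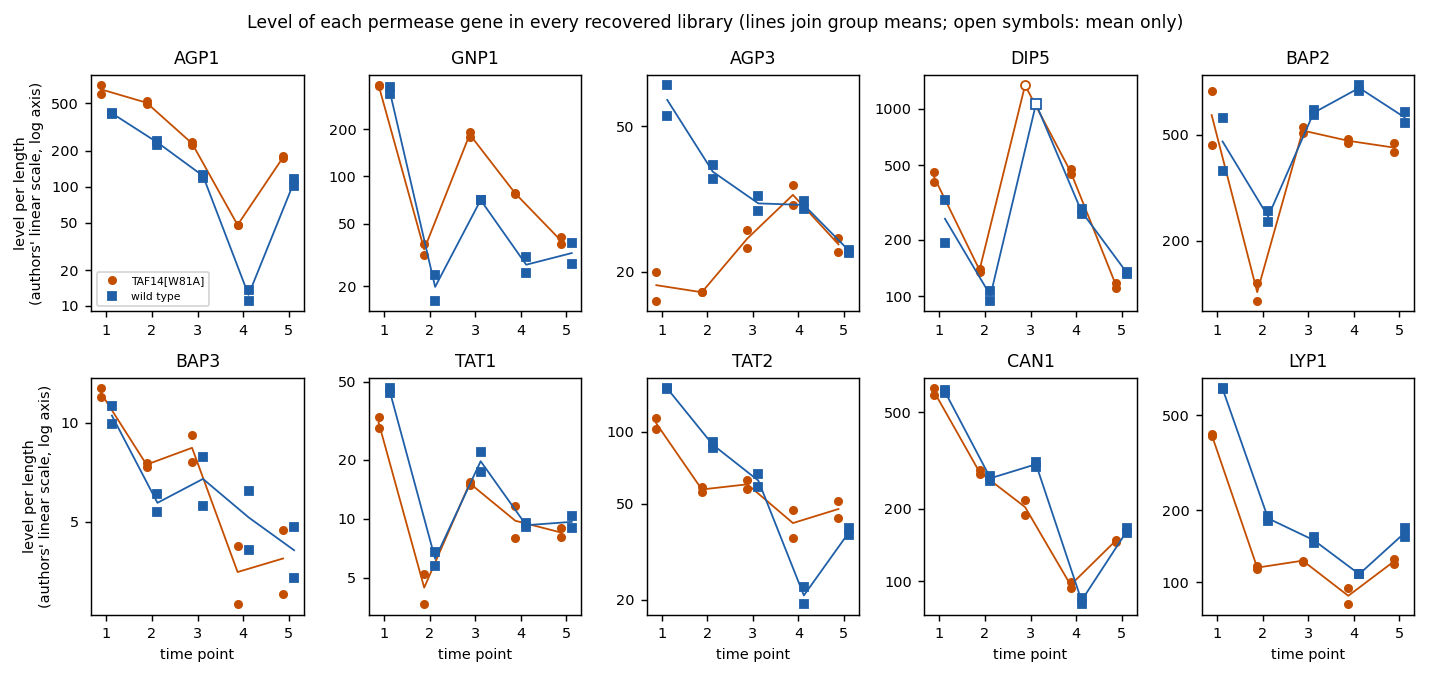
Level per gene length of each permease gene (y axis, authors' linear scale, log axis) against time point (x axis) in each recovered library, with circles for the TAF14[W81A] mutant, squares for wild type, lines through group means and open symbols where only the mean is known. AGP1 lies higher in the mutant at all 5 time points and LYP1 lower, while AGP3 lies lower at time points 1 to 3. The call of AGP3 at time point 3 was lost without single libraries.

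The broad-range and acidic permeases are given first. AGP1 encodes a permease with a wide range that takes up most uncharged amino acids, asparagine and glutamine among them. It lies on chromosome III (YCL025C, 76018 to 77919 in the RefSeq R64 assembly, which is that of build sacCer3). AGP1 had levels of 705 and 600 in mutant libraries, against 409 and 412 in wild-type libraries, at time point 1. At time point 2 it had 491 and 516 in the mutant and 243 and 224 in wild type, and at time point 3 it had 223 and 237 in the mutant and 126 and 119 in wild type. The mutant libraries were above the wild-type libraries at each of these times. At time point 4 AGP1 reached its lowest level in both genotypes, 47.4 and 48.0 in the mutant and 13.7 and 11.1 in wild type. At time point 5 it was back at 173 and 180 in the mutant and 115 and 102 in wild type. AGP1 was the only member called higher at all 5 time points, with differences of 0.66, 1.11, 0.91, 1.94 and 0.70 (SE 0.09 each). The difference at time point 4 was a 3.83-fold higher level in the mutant (adjusted p = 3.9e-10). The mean over the 5 time points was 1.06 ± 0.04 (adjusted p = 9e-12).

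The trough of AGP1 at time point 4 was also shallower in the mutant. From time point 3 to 4, AGP1 fell by 2.27 in the mutant and by 3.3 in wild type on the log2 scale, and this difference between steps was 1.03 ± 0.13 (adjusted p = 0.00018). From time point 4 to 5, it rose by 1.88 in the mutant and by 3.12 in wild type, a difference between steps of -1.24 ± 0.13 (adjusted p = 1e-05). Its span over the cycle, the highest minus the lowest group mean, was 3.76 in the mutant and 5.04 in wild type. The wild-type span of AGP1 was the widest of the 10 genes. The lowest library of AGP1, at this trough, held 60 reads.

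GNP1 encodes a permease of high affinity for glutamine that also takes leucine, serine, threonine and other uncharged amino acids (YDR508C, chromosome IV, 1466453 to 1468444). At time point 1 it had levels of 380 and 378 in mutant libraries and 371 and 333 in wild-type libraries, and no difference was called (0.11 ± 0.16, adjusted p = 0.59). At time point 2 it had 37.1 and 31.5 in the mutant and 23.4 and 16.2 in wild type. At time point 3 it had 179 and 191 in the mutant and 70.8 and 70.7 in wild type. The mutant was above wild type in every library of time points 2 to 4, which were the 3 times with a call. GNP1 at time point 4 had 77.6 and 78.2 in the mutant and 30.7 and 24.2 in wild type. By time point 5 the libraries of the genotypes overlapped, with 41.0 and 37.2 in the mutant and 37.5 and 27.5 in wild type, and the difference was 0.28 ± 0.16 (adjusted p = 0.2). It was 0.5 without wild-type library 1 of that time point and nearly vanished without library 2, since wild-type library 1 lay between the mutant libraries. The differences at time points 2 to 4 were 0.81 (adjusted p = 0.00059), 1.38 (adjusted p = 3.5e-06) and 1.51 (adjusted p = 8.3e-07), each with an SE of 0.16. From time point 4 to 5, GNP1 fell by 0.99 in the mutant and changed by 0.24 in wild type, where no call was made (adjusted p = 0.21). The wild-type change was 0.46 without wild-type library 2 of time point 5 and nearly vanished without library 1. The difference between these steps was -1.23 ± 0.22 (adjusted p = 0.00081).

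AGP3, which encodes a less studied permease with a broad range, went the other way (YFL055W, chromosome VI, 17004 to 18680). It had levels of 20 and 16.7 in the mutant and 64.8 and 53.3 in wild type at time point 1. AGP3 at time point 2 had 17.6 and 17.6 in the mutant and 39.3 and 35.9 in wild type, and at time point 3 it had 23.3 and 26.1 in the mutant and 29.4 and 32.2 in wild type. The wild-type libraries were the higher ones at these 3 times, and the gap narrowed. AGP3 at time point 4 had 34.5 and 30.5 in the mutant and 31.3 and 29.8 in wild type. At time point 5 it had 24.8 and 22.7 in the mutant and 22.6 and 23.0 in wild type, so the genotypes overlapped at both later times. The difference was -1.67 ± 0.12 at time point 1 (adjusted p = 6.3e-08), a 3.19-fold lower level in the mutant, and -1.09 ± 0.12 at time point 2 (adjusted p = 5e-06). At time point 3 it was -0.32 ± 0.12 (adjusted p = 0.044), a call lost on leaving out a single library, for example at an adjusted p of 0.25 without mutant library 1 of that time point. Upper-quartile scaling did not call the difference at time point 3 either (-0.28, adjusted p = 0.073), nor did the authors' deposited table (adjusted p = 0.211). In wild type AGP3 was highest at time point 1 and lowest at time point 5, and in the mutant it was highest at time point 4 and lowest at time point 2. From time point 2 to 3 it rose by 0.48 in the mutant, while its change in wild type was -0.29 ± 0.12 and not called (adjusted p = 0.05 after rounding), though it was called with a pseudocount of 8, a filter on low values and both other scalings, and the steps differed by 0.77 ± 0.17 (adjusted p = 0.0035).

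DIP5 encodes the high-affinity permease for glutamate and aspartate (YPL265W, chromosome XVI, 41043 to 42869). It had levels of 459 and 407 in mutant libraries and 326 and 193 in wild-type libraries at time point 1. DIP5 at time point 2 had 135 and 140 in the mutant and 107 and 94.9 in wild type. At time point 3 its 2 libraries could not be separated in either genotype, and their mean was 1330 in the mutant and 1060 in wild type, so this time point gave DIP5 no estimate of spread. Time point 3 was the peak of DIP5 in both genotypes, which no other member had. Late RB brought 475 and 447 in the mutant and 292 and 275 in wild type, and at time point 5 it had 111 and 118 in the mutant and 135 and 131 in wild type. The differences were 0.78 at time point 1 (adjusted p = 0.0011), 0.45 at time point 2 (adjusted p = 0.032) and 0.70 at time point 4 (adjusted p = 0.0023), each with an SE of 0.16. The size at time point 1 rested on the wild-type libraries of that time, and was 1.16 without library 1 and 0.41 without library 2. The call at time point 2 was lost when any library of that time point was left out, with adjusted p from 0.052 to 0.17. At time points 3 and 5 the differences were 0.33 (adjusted p = 0.11) and -0.22 (adjusted p = 0.33). Without either wild-type library of time point 1, which lay far apart (SD 0.533 in log2), both were called at the same size. Such a fit no longer holds the spread between these libraries, the largest of DIP5, so these calls do not show that the differences are firmer. The authors' deposited table called time point 2 (log2 fold change 0.43, adjusted p = 0.000484) and time point 3 (log2 fold change 0.3, adjusted p = 0.000979). From time point 4 to 5, DIP5 fell by 2.01 in the mutant and by 1.09 in wild type, and the steps differed by -0.92 ± 0.23 (adjusted p = 0.009).

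Among the permeases for branched-chain and aromatic amino acids, BAP2 and TAT1 lie next to each other on chromosome II. BAP2 (YBR068C, 373861 to 375690) carries leucine, isoleucine and valine, and TAT1 (YBR069C, 376574 to 378433) carries tyrosine, tryptophan and valine. Both have the same orientation, with 883 bases between them. BAP2 had levels of 729 and 456 in the mutant and 577 and 366 in wild type at time point 1, where the libraries of each genotype were far apart and the genotypes overlapped. BAP2 at time point 2 had 138 and 119 in the mutant and 258 and 234 in wild type, and at time point 3 it had 505 and 532 in the mutant and 590 and 618 in wild type. Late RB levels were 481 and 467 in the mutant and 732 and 766 in wild type, and at time point 5 it had 431 and 464 in the mutant and 606 and 555 in wild type. From time point 2 on, each mutant library was below each wild-type library. Calls were made at time point 2 (-0.94 ± 0.18, adjusted p = 0.00056) and time point 4 (-0.66 ± 0.18, adjusted p = 0.0069). The differences at time points 1, 3 and 5 were 0.33 (adjusted p = 0.15), -0.22 (adjusted p = 0.35) and -0.37 (adjusted p = 0.14). Without mutant library 2 of time point 1 the first was 0.67, and without wild-type library 1 of that time it was 0.66. It nearly vanished without mutant library 1 or wild-type library 2 of that time. The log2 levels there were 9.51 and 8.83 in the mutant and 9.17 and 8.52 in wild type. The authors' deposited table called BAP2 at time point 3 (log2 fold change -0.24, adjusted p = 0.0153) and at time point 5 (-0.39, adjusted p = 6.14e-09), and the difference at time point 5 was also called here without either wild-type library of time point 1 (adjusted p = 0.034). BAP2 fell by 2.17 from time point 1 to 2 in the mutant and by 0.90 in wild type, a difference between steps of -1.27 ± 0.26 (adjusted p = 0.011). That call was lost without mutant library 2 of time point 2 (-1.16, adjusted p = 0.058). The steps from time point 2 to 3 differed by 0.72 ± 0.26 (adjusted p = 0.048), a call that did not hold when single libraries of those times were left out (adjusted p of 0.16 without mutant library 2 of time point 2).

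TAT1 was expressed at a lower level per length than its neighbour in every group. At time point 1 it had levels of 33.1 and 29.0 in the mutant and 46.3 and 44.1 in wild type. TAT1 at time point 2 had 3.69 and 5.23 in the mutant and 5.74 and 6.78 in wild type, and at time point 3 it had 14.9 and 15.5 in the mutant and 17.4 and 22.0 in wild type. Each mutant library was below each wild-type library at these 3 times, though the difference at time point 3 was not called (-0.36 ± 0.19, adjusted p = 0.14). The genotypes overlapped afterwards, with 8.01 and 11.6 in the mutant and 9.52 and 9.07 in wild type at time point 4. At time point 5 TAT1 had 8.08 and 8.98 in the mutant and 8.97 and 10.4 in wild type. The differences at time points 1 and 2 were -0.54 ± 0.19 (adjusted p = 0.029) and -0.49 ± 0.19 (adjusted p = 0.047). Both calls were lost on leaving out single libraries (adjusted p of 0.15 without mutant library 2 of time point 1, and 0.41 without mutant library 1 of time point 2). The authors' deposited table called neither (adjusted p = 0.122 and 0.396). The mean difference over the 5 time points was -0.30 ± 0.09 (adjusted p = 0.0051). TAT1 was 1 of the 2 members without a call for the genotype by time interaction (adjusted p = 0.29).

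BAP3, a second branched-chain permease (YDR046C, chromosome IV, 548762 to 550576), had the lowest mean level of the 10 genes in every group but the mutant at time point 2, where TAT1 was lower. Its libraries held 14 to 69 reads. It had levels of 12 and 12.7 in the mutant and 9.88 and 11.2 in wild type at time point 1, its highest level in both genotypes. At time point 4 it had 4.21 and 2.81 in the mutant and 4.11 and 6.2 in wild type. The genotypes did not differ by the test at any time point, with differences of 0.23, 0.38, 0.32, -0.53 and -0.09 (SE 0.27 each) and adjusted p from 0.12 to 0.83. Its SE was larger than the 0.19 of TAT1, and a difference as small as those of TAT1 was not detectable for BAP3 at this depth. Its interaction with time was not called either (adjusted p = 0.22).

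TAT2, the high-affinity permease for tryptophan and tyrosine (YOL020W, chromosome XV, 286172 to 287950), changed sign over the cycle. It had levels of 114 and 102 in the mutant and 151 and 150 in wild type at time point 1. TAT2 at time point 2 had 58.6 and 56.2 in the mutant and 90.7 and 85.4 in wild type, and at time point 3 it had 57.6 and 62.9 in the mutant and 58.6 and 66.4 in wild type. The mutant was lower at the first 2 times, and the genotypes overlapped at the third. TAT2 at time point 4 had 47.2 and 36.1 in the mutant and 22.5 and 19.2 in wild type, and at time point 5 it had 43.6 and 51.6 in the mutant and 37.0 and 39.6 in wild type, so the mutant was the higher one at both. The differences were -0.48 (adjusted p = 0.0044), -0.62 (adjusted p = 0.00065), -0.05 (adjusted p = 0.77), 0.98 (adjusted p = 5.4e-06) and 0.31 (adjusted p = 0.067), each with an SE of 0.12. The difference at time point 5 was called with upper-quartile scaling (0.36, adjusted p = 0.034), and the authors' deposited table did not call that at time point 1 (adjusted p = 0.0627). From time point 3 to 4, TAT2 fell by 0.54 in the mutant and by 1.58 in wild type, and the steps differed by 1.04 ± 0.17 (adjusted p = 0.0019). The span of TAT2 over the cycle was 1.39 in the mutant and 2.85 in wild type.

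The basic amino acid permeases were CAN1, which carries arginine and through which canavanine enters (YEL063C, chromosome V, 31694 to 33466), and LYP1, which carries lysine (YNL268W, chromosome XIV, 138550 to 140385). CAN1 had levels of 627 and 591 in the mutant and 617 and 599 in wild type at time point 1, and 278 and 288 in the mutant and 261 and 273 in wild type at time point 2. At time point 3 it had 189 and 217 in the mutant and 297 and 313 in wild type. The genotypes thus parted at time point 3, where wild type did not go on falling and the mutant did. CAN1 at time point 4 had 99.4 and 94.0 in the mutant and 80.9 and 85.8 in wild type, and at time point 5 it had 149 and 146 in the mutant and 166 and 159 in wild type. The difference was 0.00 ± 0.07 at time point 1 (adjusted p = 0.98) and -0.59 ± 0.07 at time point 3 (adjusted p = 4.1e-06). At time point 4 it was 0.21 ± 0.07 (adjusted p = 0.017), which was lost without mutant library 1 (adjusted p = 0.12) or wild-type library 1 (adjusted p = 0.13) of that time point. In the authors' deposited table the difference at time point 4 was not called (adjusted p = 0.218). From time point 2 to 3, CAN1 fell by 0.48 in the mutant and rose by 0.19 in wild type, and the steps differed by -0.68 ± 0.10 (adjusted p = 8e-05). The small rise in wild type was not called with upper-quartile scaling (0.11, adjusted p = 0.19). From time point 3 to 4, CAN1 fell by 1.06 in the mutant and by 1.87 in wild type, a difference between steps of 0.80 ± 0.10 (adjusted p = 9.1e-05).

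LYP1 was the only member called lower at all 5 time points. It had levels of 412 and 418 in the mutant and 645 and 649 in wild type at time point 1, and 117 and 114 in the mutant and 189 and 181 in wild type at time point 2. At time point 3 it had 122 and 123 in the mutant and 154 and 146 in wild type. LYP1 at time point 4 had 94.0 and 81.1 in the mutant and 108 and 108 in wild type, and at time point 5 it had 119 and 125 in the mutant and 168 and 154 in wild type. No mutant library reached a wild-type library of its time point. The differences were -0.64, -0.68, -0.28, -0.31 and -0.40 (SE 0.07 each), with adjusted p from 1.9e-06 to 0.0031. Without mutant library 2 of time point 4 the difference there was -0.2 (adjusted p = 0.046). The mean was -0.46 ± 0.03 (adjusted p = 2e-09). Only the step from time point 2 to 3 differed between genotypes, by 0.40 ± 0.10 (adjusted p = 0.006), with a change of 0.09 in the mutant (adjusted p = 0.26) and a fall by 0.30 in wild type (adjusted p = 0.00092).

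**Figure D2:**
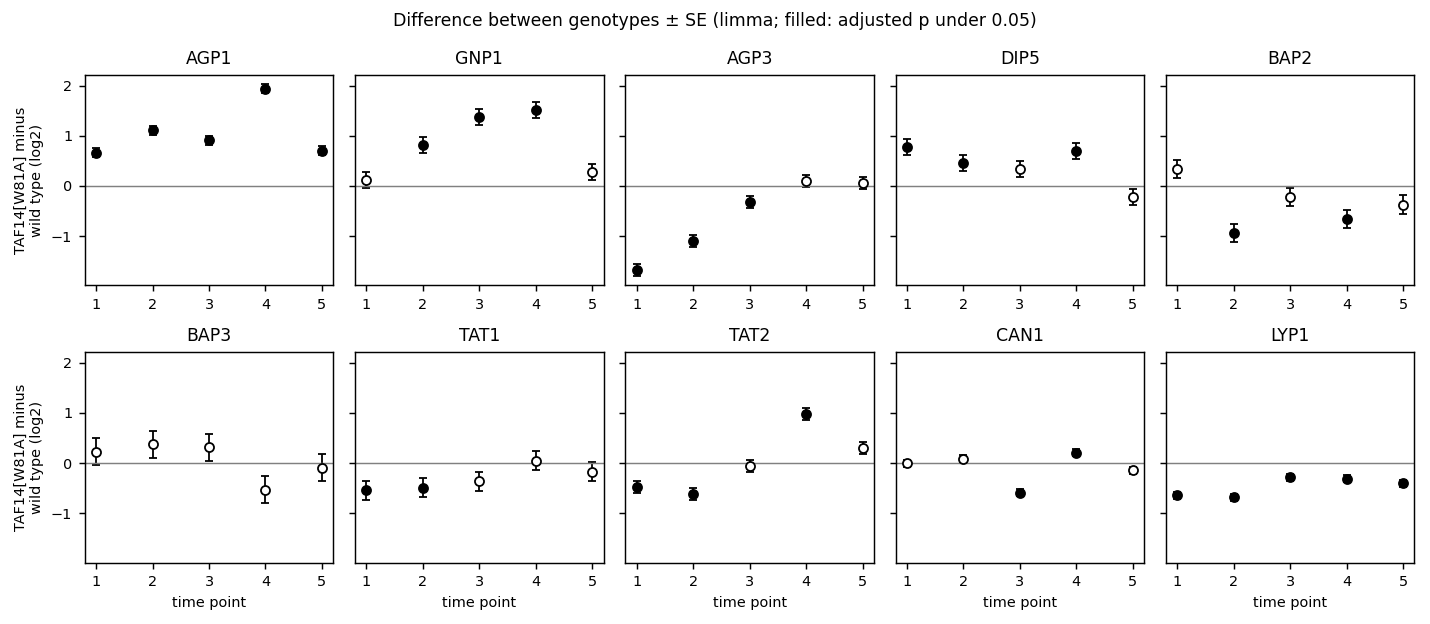
Difference between the TAF14[W81A] mutant and wild type (y axis, log2) at each time point (x axis) for the 10 permease genes, with the SE of the limma fit as bars and filled points at an adjusted p under 0.05. AGP1 lies above 0 and LYP1 below 0 at all 5 time points, AGP3 moves from -1.67 to 0.06, and TAT2 from -0.48 at time point 1 to 0.98 at time point 4.

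All 10 genes changed over the 5 time points in each genotype by the F test (adjusted p up to 3.1e-05 in the mutant and 0.0024 in wild type). This stands beside 91.6% of all genes called in the mutant and 93.7% in wild type. The wild-type call of BAP3 did not hold without time point 1 (adjusted p = 0.12). The median span of the 10 was 2.45 in the mutant and 2.83 in wild type, against 1.12 and 1.31 for all genes tested. The widest spans were those of AGP1, GNP1 and DIP5, which in the mutant were 3.76, 3.46 and 3.53 and in wild type 5.04, 4.16 and 3.39. AGP3 had the narrowest span in the mutant, 0.88, and BAP3 that in wild type, 1.35, close to the 1.36 of AGP3. Genotype by time interaction was called for 8 of the 10 genes, with 48.1% of all genes called.

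Permease transcripts fell from early to late OX. From time point 1 to 2, 9 of the 10 fell in the mutant, where 34.8% of all genes rose and 37.8% fell, and 10 of 10 fell in wild type, where 34.3% rose and 40.8% fell. The median change of the 10 was -1.38 in the mutant and -1.05 in wild type, against -0.03 and -0.08 over all genes. GNP1 fell most, by 3.46 in the mutant and 4.16 in wild type, followed by TAT1 with 2.77 in the mutant and 2.82 in wild type. LYP1 fell by 1.84 in the mutant and 1.80 in wild type, and CAN1 by 1.11 in the mutant and 1.19 in wild type. AGP3 was the gene without a call in the mutant (-0.06 ± 0.12, adjusted p = 0.69), against -0.64 ± 0.12 in wild type (adjusted p = 0.00016). The difference between these steps of AGP3 was 0.59 ± 0.17 and did not pass (adjusted p = 0.062). With upper-quartile scaling, which moved the median change of all genes to 0.15 in the mutant and 0.16 in wild type, the mutant falls of AGP1 (-0.18, adjusted p = 0.087) and BAP3 (-0.53, adjusted p = 0.089) were not called. The fall of BAP3 was also not called in the mutant without any 1 of the 4 mutant libraries of these times (adjusted p from 0.062 to 0.097), or in wild type without wild-type library 1 of time point 2 (-0.78, adjusted p = 0.054). BAP2 alone had a called difference between genotypes in this step, a lower one, beside 1.82% of all genes with a higher and 3.11% with a lower one. That count rested on single libraries. BAP2 was not called without mutant library 2 of time point 2 (-1.16, adjusted p = 0.058). DIP5, at -0.33 (adjusted p = 0.46), was called without wild-type library 1 of time point 1 (-0.71, adjusted p = 0.00055) and was 0.04 without library 2. AGP3 was called without wild-type library 2 (0.73, adjusted p = 0.022) or mutant library 1 (0.71, adjusted p = 0.044) of time point 1. GNP1 was called without wild-type library 1 of time point 2 (0.96, adjusted p = 0.029) or wild-type library 2 of time point 1 (0.78, adjusted p = 0.043), against 0.7 with all libraries (adjusted p = 0.089). AGP1, at 0.44 (adjusted p = 0.065), was called without mutant library 1 of time point 1 (0.56, adjusted p = 0.032), wild-type library 1 of that time point (0.45, adjusted p = 0.044) or either wild-type library of time point 4 (adjusted p = 0.034). In wild type BAP2 changed by -0.58 in place of -0.90 in this step without wild-type library 1 of time point 1.

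From late OX to early RB the genes separated. In the mutant 5 rose and 2 fell between time points 2 and 3, where 29.4% of all genes rose and 30.2% fell. In wild type 5 rose and 3 fell, or 4 and 4 with upper-quartile scaling, where 33.5% of all genes rose and 32.9% fell. DIP5 rose most, by 3.27 in the mutant and 3.39 in wild type. GNP1 rose by 2.43 in the mutant and 1.85 in wild type, BAP2 by 2.02 in the mutant and 1.3 in wild type, and TAT1 by 1.75 in the mutant and 1.62 in wild type. AGP1 fell in both, by 1.13 in the mutant and 0.93 in wild type. Differences between genotypes in this step were called for 5 members, higher for AGP3, BAP2, TAT2 and LYP1 and lower for CAN1, beside 18.1% of all genes higher and 9.99% lower. The calls of BAP2 and TAT2 were each lost in fits without a single library. GNP1, at 0.57 (adjusted p = 0.067), was called with a pseudocount of 8 (0.6, adjusted p = 0.047) and with upper-quartile scaling (0.62, adjusted p = 0.048).

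Late RB brought a second fall. From time point 3 to 4, 8 of the 10 fell in the mutant and 1, AGP3, rose by 0.39, where 11.9% of all genes rose and 11.8% fell. In wild type 7 fell and none rose, where 22.8% of all genes rose and 20.8% fell. The median change of the 10 was -0.85 in the mutant and -1.22 in wild type, against -0.01 and 0.00 over all genes. BAP2 was not called in either genotype, with -0.13 (adjusted p = 0.66) in the mutant and 0.31 (adjusted p = 0.19) in wild type. The mutant calls of AGP3, BAP3, TAT1 and TAT2 were each lost in at least 1 fit without a single library. DIP5 could not be fitted without a library of time point 3. AGP1, TAT2 and CAN1 fell less in the mutant than in wild type by the test of the step difference, 3 of 10 members beside 2.11% of all genes with a higher and 2.91% with a lower step difference.

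Into RC, from time point 4 to 5, AGP1, CAN1 and LYP1 rose in both genotypes and DIP5 and AGP3 fell in both. The mutant fall of AGP3 was not called without mutant library 1 of time point 4 (-0.36, adjusted p = 0.079) or mutant library 2 of time point 5 (-0.38, adjusted p = 0.068). In the mutant 3 rose and 3 fell, where 24.4% of all genes rose and 20.7% fell, and in wild type 4 rose and 2 fell, where 32.5% rose and 29.1% fell. GNP1 was called in the mutant and TAT2 in wild type (0.88 ± 0.12, adjusted p = 1e-05), against a change of 0.20 in the mutant for TAT2 (adjusted p = 0.20). Without mutant library 1 of time point 4 this mutant change was 0.39 and called (adjusted p = 0.024). The steps of AGP1, GNP1, TAT2, CAN1 and DIP5 were lower in the mutant than in wild type, and no member was higher, where 8.17% of all genes were higher and 14.6% lower. Without mutant library 1 of time point 4, 3 members were called, with CAN1 (adjusted p = 0.071) and TAT2 (adjusted p = 0.063) no longer among them.

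**Figure D3:**
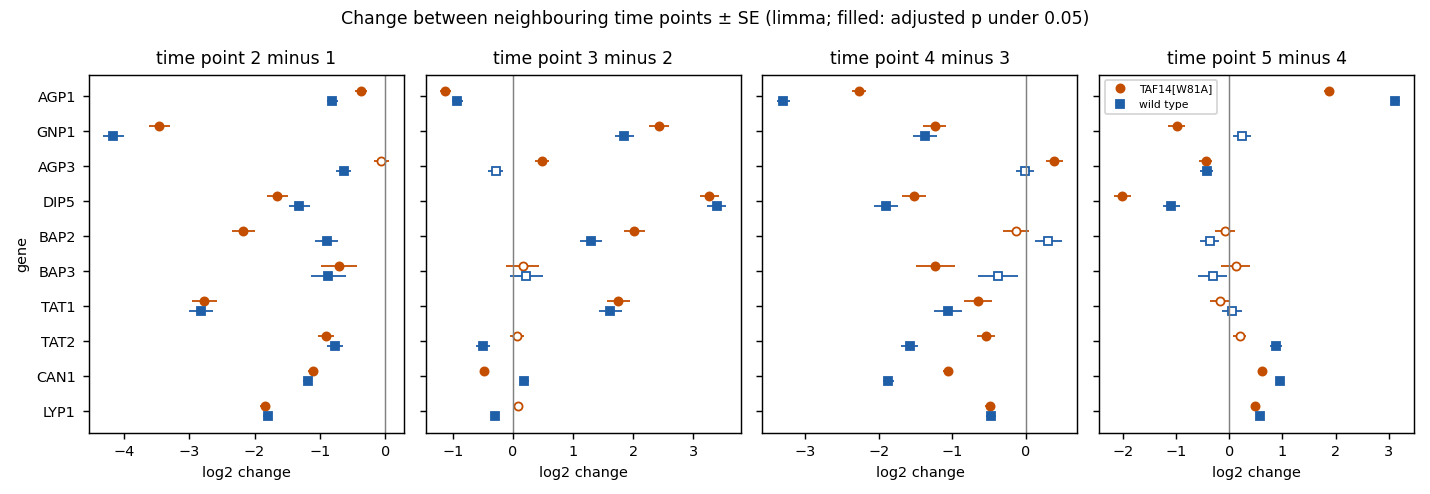
Change in log2 level between neighbouring time points (x axis, 1 panel a step) for each permease gene (y axis), with circles for the TAF14[W81A] mutant, squares for wild type, SE bars of the limma fit and filled symbols at an adjusted p under 0.05. All points lie below 0 from time point 1 to 2, and AGP1 has the largest fall from time point 3 to 4 in both genotypes, 2.27 in the mutant and 3.3 in wild type.

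The sum of the 10 levels per length was 3250 in the mutant and 3010 in wild type at time point 1, and 1290 in the mutant and 1190 in wild type at time point 2. At time point 3 it was 2690 in the mutant and 2430 in wild type, at time point 4 it was 1330 in both, and at time point 5 it was 1130 in the mutant and 1250 in wild type. The sum therefore had its highest values at time points 1 and 3 in both genotypes, with AGP1, CAN1 and BAP2 highest at time point 1 in the mutant, LYP1, CAN1 and BAP2 in wild type, and DIP5 at time point 3 in both. In the order of the 10 groups by mean level, from highest to lowest, neighbours whose libraries overlapped were fewest for AGP1 and CAN1, with 1 of 9 neighbouring pairs each. They were most frequent for BAP3, with 6 of 9, and AGP3, with 5 of 9.

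The patterns over the 10 groups were alike in some pairs and not in others. Among the 45 pairs of members the median Pearson r of the deposited log2 levels over 10 groups was 0.49, with 22 pairs above 0.5 and 7 below 0. TAT2 and CAN1 had the highest value (0.92), then GNP1 and TAT1 (0.88). AGP1 and BAP2 had the lowest (-0.49). The neighbours BAP2 and TAT1 had 0.58, and the related branched-chain permeases BAP2 and BAP3 had -0.062. The 10 groups share 2 genotypes and 5 time points, so these values describe a shared course and carry no test. Among the 4469 genes whose levels spanned at least 1 on the log2 scale, the gene most like AGP1 was GLN1, which encodes glutamine synthetase (r = 0.974), followed by COG2 (0.959) and NSE4 (0.958). CAN1 was most like LYS20 (0.97), DAL7 (0.969) and LYS2 (0.967), of which LYS20 and LYS2 encode enzymes of lysine synthesis. LYP1 was most like YPR071W (0.99), DIS3 (0.988), an exosome nuclease gene that adjoins TAT2 on the chromosome, and URA3 (0.987). TAT2 was most like the histone deacetylase gene HDA1 (0.98), YOL029C (0.969) and RAD59 (0.963). For DIP5 they were the neighbouring sodium pump genes ENA1 (0.922), ENA2 (0.916) and ENA5 (0.915), whose near-identical sequences can share reads. For BAP2 they were MIG3 (0.945), HMS1 (0.934) and ALD4 (0.904), and for TAT1 they were SOK1 (0.949), PRP28 (0.947) and the nicotinic acid permease gene TNA1 (0.942). GNP1 was nearest to YGR035C (0.949), NSL1 (0.922) and PRP28 (0.917), BAP3 had the drug exporter gene PDR5 (0.919) and the urea transporter gene DUR3 (0.915) among its 3 nearest, and AGP3 was nearest to DIG1 (0.896), ARN1 (0.886) and BOP3 (0.871).

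Genes of related transport and of permease control were described from 6 further lists. Their counts for the mean over the 5 time points are to be read against the 38% of all genes called higher and 31.9% called lower, with a median of 0.03. Of the 13 genes of the SPS pathway, 2 were higher and 9 lower in the mutant (median -0.16). The sensor gene SSY1 was lower by the mean (-0.41 ± 0.05, adjusted p = 6.1e-07), and the transcription factor gene STP1 was as well (-0.34 ± 0.03, adjusted p = 2.8e-07). ASI1, which encodes a component of the inner nuclear membrane complex that holds unprocessed Stp factors away from promoters, was higher (0.41 ± 0.05, adjusted p = 4.3e-06). At time point 1 SSY1 had levels of 36.0 and 35.8 in the mutant and 48.9 and 50.5 in wild type. Of the 6 tested among 7 regulators of permease promoters, 1 was higher and 4 were lower (median -0.15), the higher one being the GATA repressor gene DAL80 (0.41 ± 0.08, adjusted p = 0.00034). LEU3 (-0.24 ± 0.04, adjusted p = 4.6e-05) and the GATA activator gene GLN3 (-0.18 ± 0.04, adjusted p = 0.0018) were lower. GCN4, whose libraries could not be separated in any group, was not tested.

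Of 19 genes for permease export and ubiquitination, none was higher and 11 were lower in the mean over time points, beside 38% and 31.9% of all genes (median -0.15, against 0.03 for all genes). The largest differences were those of the arrestin-like adaptor genes CSR2 (-0.67 ± 0.08, adjusted p = 1e-06), ART5 (-0.60 ± 0.06, adjusted p = 4.4e-07) and ECM21 (-0.47 ± 0.04, adjusted p = 5.3e-08). Of 16 vacuolar amino acid transporters, 8 were higher and 4 lower (median 0.13), near the 38% and 31.9% of all genes. AVT6 (-0.52 ± 0.07, adjusted p = 2.3e-06) and AVT3 (-0.43 ± 0.05, adjusted p = 1.2e-06), which export amino acids from the vacuole, were among the lower ones and ATG22 (0.34 ± 0.04, adjusted p = 5.2e-07) among the higher ones. Of 6 genes of peptide uptake, none was higher and 3 were lower (median -0.11), beside the same 38% and 31.9%. They were the oligopeptide transporter gene OPT1 (-1.02 ± 0.05, adjusted p = 1.6e-10), CUP9, which encodes a repressor of the peptide transporter gene PTR2 (-0.58 ± 0.03, adjusted p = 1.5e-10), and the ubiquitin ligase gene UBR1 (-0.12 ± 0.03, adjusted p = 0.0022). OPT1 had levels of 20 and 20.9 in the mutant and 124 and 106 in wild type at time point 1, a difference of -2.48 ± 0.12 (adjusted p = 1.6e-09).

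Other amino acid transporters of the plasma membrane numbered 10, of which 2 were higher and 1 lower in the mean over time points, fewer than the 38% and 31.9% of all genes, and their median of 0.03 was that of all genes. The high-affinity methionine permease gene MUP1 was higher (0.71 ± 0.07, adjusted p = 2.4e-07), as was the general amino acid permease gene GAP1 (0.15 ± 0.05, adjusted p = 0.017), and ALP1, a relative of CAN1 and LYP1, was lower (-0.29 ± 0.11, adjusted p = 0.023). MUP1 at time point 4 had levels of 125 and 81.4 in the mutant and 14.6 and 13.2 in wild type, a difference of 2.84 ± 0.15 (adjusted p = 2.1e-09). At that time 4 of the 10 were higher, where 25.9% of all genes were, SAM3 (1.16 ± 0.08, adjusted p = 1.9e-08) and MMP1 (1.12 ± 0.17, adjusted p = 4e-05) among them, and 1 was lower, where 21.7% were. From time point 1 to 2, 9 of these 10 fell in each genotype, where 37.8% of all genes fell in the mutant and 40.8% in wild type. Their median change was -1.62 in the mutant and -1.63 in wild type, against -0.03 and -0.08 for all genes. AGP2 was the exception, which rose by 2.74 in the mutant and 3.35 in wild type.

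H3K9ac, acetylated lysine 9 of histone H3, was measured by ChIP in the CEN.PK strain at time points 3 and 4, with 1 library each, so no test was possible. The deposited signal was averaged over bins 11 to 18 of each gene, taken here as its start side, since the files do not say which bin holds the start. Bins run from the upstream to the downstream side, since divergent neighbours had alike signals in bins 1 to 10 (r = 0.827 over 657 pairs) and not in bins 61 to 70 (r = 0.111), while convergent neighbours had the reverse (r = 0.0395 and 0.882 over 1076 pairs). CAN1 had a signal of 0.732 at time point 4 and 1.36 at time point 3, and its difference of -0.626 stood at percentile 0.233 of all genes. DIP5 had 1.09 at time point 4 and 1.58 at time point 3, with a difference of -0.485 at percentile 1.13. These were the strongest falls among the members, followed by TAT2 (0.582 at time point 4 and 0.962 at time point 3, percentile 3.86), AGP3 (1.19 and 1.54, percentile 5.26) and TAT1 (0.811 and 1.13, percentile 6.71). BAP2 was the only member with a higher signal at time point 4, 1.19 against 1.04 at time point 3, at percentile 92.5. The other 9 had a lower signal at time point 4, as had 66.3% of all 6008 genes. The median difference was -0.256 for the members and -0.0597 for all genes. These sizes depend on the window. Over bins 1 to 57, the difference was -0.136 for CAN1, -0.0992 for DIP5, -0.00963 for AGP1 and -0.00381 for LYP1, against -0.191 for LYP1 over bins 11 to 18, and it was 0.285 for BAP2. Over bins 5 to 16 it was 0.514 for BAP2.

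Set beside RNA, the H3K9ac differences gave an r of 0.35 with the wild-type RNA change from time point 3 to 4 over the 10 members, and of 0.17 over all genes. Both measures come from the same strain and time points. The r over 10 members leans on BAP2, the only one that rose in both, by 0.154 in signal and 0.31 in RNA (not called). Whether the r of the members differs from that of all genes was not tested. CAN1 and DIP5 lost signal and RNA together, with RNA falls of 1.87 and 1.90 in wild type. AGP1, whose RNA fell most (by 3.3), had 0.859 at time point 4 and 0.958 at time point 3, a difference of -0.0994 at percentile 39.8. AGP3 had a signal difference of -0.345 with an RNA change of -0.01 ± 0.12. No ChIP library of the mutant was analysed here, so the marks cannot be set beside the differences between genotypes.

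**Figure D4:**
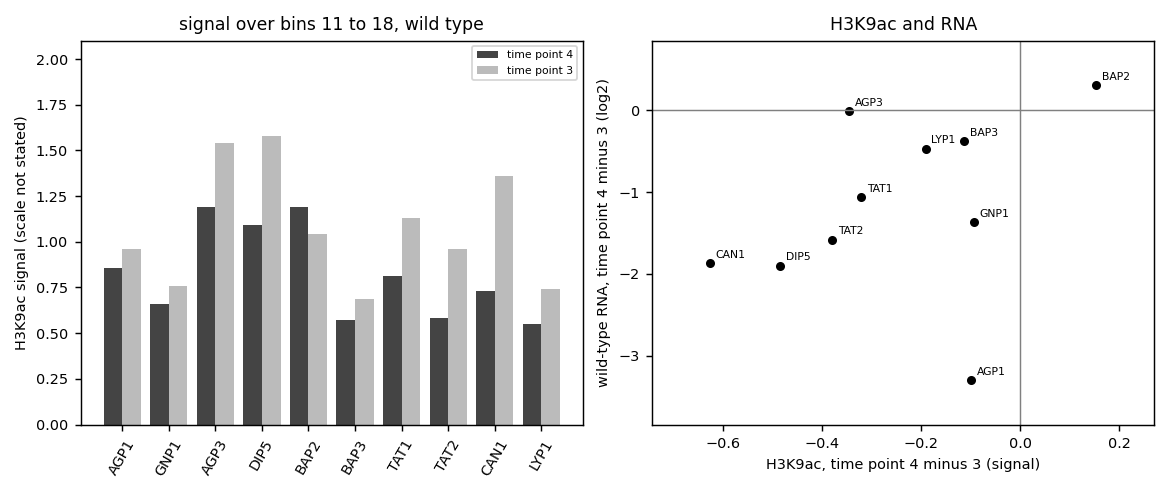
Left, H3K9ac signal over bins 11 to 18 (y axis, scale not stated) of each permease gene (x axis) at time point 4 (dark bars) and time point 3 (light bars) in the CEN.PK strain, 1 library each. Right, the difference in that signal (x axis) against the wild-type RNA change from time point 3 to 4 (y axis, log2), 1 point a gene, where CAN1 has the largest signal loss and AGP1 the largest RNA fall.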

How the data were processed

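RNA was measured in 20 libraries. Of the 6 ChIP libraries, those of H3K9ac were used, and those of H3K9cr and of histone H3 were not analysed here on their own. Per the labels' protocols, RNA libraries were made with a kit that marks strand. Whether counting used strand, and how reads shared by related genes (BAP2 and BAP3, AGP1 and GNP1, CAN1, LYP1 and ALP1) were handled, is not given in the sources used here. BWA, DESeq2, MACS2, deepTools and sacCer3 appear in the submitters' processing notes, without versions or roles. Per the file headers, the authors deposited for each genotype and time 1 log2 level a gene. They also deposited a log2 fold change with an adjusted p-value for each time point, per the file headers. The authors deposited the ChIP values as a signal per gene and bin, with 70 bins at time point 3 and 58 at time point 4. Its scale and the place of the gene start are not stated.

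Reads of the 2 libraries of a group were worked out from the decimals of its levels. Times the gene length, a linear level splits into 2 whole read numbers, each worth a fixed amount in its library, with an error of at most 1.15 roundings. RefSeq lengths gave such a split for 5438 genes, a search over lengths gave it for 552, and 18 had several lengths. The search tries lengths up to the RefSeq span first. This bound was added after a first fit without it had been seen, in which 439 genes had a searched length, 131 had several, 5861 were tested and TAF14 was not. No member's reads depend on the bound, and the fit without it is among the alternatives. With lengths shuffled, 1.15% of genes gave whole reads, and 199 of 200 genes searched as a control gave their RefSeq length. Libraries are called 1 and 2 and carry no letter. A group with several solutions, such as DIP5 at time point 3, entered by its mean, counted as 2 libraries.

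Scaled reads (reads times their worth in the library) were fitted as log2(scaled reads + 1) with limma 3.58.1 (trend) in R 4.3.3, in 1 fit of 10 groups with 10 residual degrees of freedom (8 for DIP5), 6.02 prior degrees of freedom and no filter on low values. Recovery and fit were tested on simulated data. Alternatives were a pseudocount of 8, a mean of at least 10 scaled reads, upper-quartile and median-of-ratios scaling, leaving out each library, leaving out time point 1, the length search without the bound, and the authors' table, and for H3K9ac other bins and centring on the median of all genes.

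Members and lists were chosen with earlier results of these data known. Named are all members, the 3 genes most like each, TAF14 and, of each other list, up to 3 called genes with the largest change. AGP2 was chosen after its values were seen. Promoter motifs were not analysed here.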

Additional observations from a re-analysis of the deposited data

Results flagged for a closer look

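Results are listed here because the course over time differed between the genotypes by a test of that difference. The genotype by time interaction had an adjusted p (limma) of 1.6e-06 for AGP3, 5.9e-06 for AGP1, 9.2e-06 for TAT2, 4.8e-05 for CAN1, 0.00017 for GNP1, 0.005 for LYP1, 0.0068 for BAP2 and 0.013 for DIP5. In single steps, the mutant change minus the wild-type change from time point 1 to 2 was -1.27 (log2) for BAP2. From time point 2 to 3 it was 0.77 for AGP3, 0.72 for BAP2, 0.56 for TAT2, 0.40 for LYP1 and -0.68 for CAN1. From time point 3 to 4 it was 1.04 for TAT2, 1.03 for AGP1 and 0.80 for CAN1. From time point 4 to 5 it was -1.24 for AGP1, -1.23 for GNP1, -0.92 for DIP5, -0.68 for TAT2 and -0.35 for CAN1. The step differences of BAP2, of TAT2 from time point 2 to 3 and from 4 to 5, and of CAN1 from 4 to 5 were not called in at least 1 fit without a single library.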

How the results depend on the processing

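Of 1120 values of members under settings other than leaving out a library, 12 lost their call and 10 gained one. No called value changed sign, though uncalled ones could. The other 1098 kept their side of the threshold. Of 4116 values without 1 library, 3998 kept theirs, 78 lost and 40 gained a call. The number of members called ranged without 1 library from 2 to 5 at time point 5 (2 with all libraries), and for the step differences from 0 to 3 in step 1 to 2 (1), 3 to 6 in step 2 to 3 (5) and 3 to 5 in step 4 to 5 (5). DIP5 could not be fitted without a library of time point 3, which lowers some of these counts by 1. The length search without the RefSeq bound, chosen after seeing the data, changed no call of a member. Where a library is left out, the lone one is assumed to vary like the other groups. Upper-quartile scaling moved the share of calls that were higher over all genes from 54.4% to 65.3% at time point 4 and from 49.9% to 62.8% at time point 5. In step 1 to 2 it moved from 48% to 59.2% in the mutant and from 45.7% to 58.9% in wild type, and in the step differences from 36.9% to 23.2% in step 1 to 2 and from 42% to 55.4% in step 3 to 4. The cause was not tested. No paired analysis was possible because the recovered libraries carry no replicate letter. H3K9ac differences of members kept their sign over bins 5 to 16, over bins 1 to 57 and after centring, but not their size. Depth limits BAP3 most, with as few as 14 reads.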
